A study of Mus musculus with 8 samples.

Results

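The transcripts described here are those encoded by mouse mitochondrial DNA (mtDNA): the 37 rows of the deposited expression table whose gene symbol begins with "mt-", out of 37305 rows. They comprise 13 protein-coding genes, 2 ribosomal RNA (rRNA) genes and 22 transfer RNA (tRNA) genes. All 37 were found by gene ID on the mitochondrial chromosome in GENCODE M21 (GRCm38), which also gave their order and coordinates.

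RNA-seq had been performed on induced pluripotent stem (iPS) cells, which are made pluripotent by reprogramming and resemble embryonic stem cells. The mutator group carried D257A substitutions on both Polg alleles and comprised 5 libraries, described as lines obtained independently. The wild-type group comprised 3 libraries, described as control lines from littermate embryos. Both groups were grown with LIF on arrested feeder cells and passaged once onto gelatin before extraction. Neither the type of feeder cell, the age of the embryos nor the way the cells were reprogrammed is given. The column headers of the wild-type libraries share a number, and if that number marks a shared embryo, effects of embryo and genotype cannot be told apart. At an implied sequencing depth, the difference between mutator replicates 1 and 2 was within sampling noise, and their headers share a code. They were averaged and counted as 1 sample, leaving 4 mutator and 3 wild-type samples. Nothing else states that the samples of a group were separate cultures, so p-values measure the spread between these samples only.

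Polg encodes the catalytic subunit of the polymerase that replicates mtDNA, and the D257A substitution removes its proofreading, so that copies of mtDNA acquire point mutations. Both strands of mtDNA are transcribed as long precursors that cover many genes. In most places tRNA genes lie between the protein and rRNA genes, and excision of the tRNAs releases the neighbouring mRNAs and rRNAs. Because neighbours come from one precursor, differences in their levels reflect processing and stability as well as transcription. The proteins are core subunits of respiratory complexes and the ATP synthase, while all the factors that transcribe and process mtDNA are encoded in the nucleus.

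The values are FPKM (fragments per kilobase of transcript, relative to the mapped fragments of the library), a level scaled by length. Depth was not recorded. The FPKM sum of a library ranged from 753985 to 1780534, and 11198 to 11899 genes per library had at least 1 FPKM. By nominal length, the protein and rRNA genes of mtDNA accounted for 1.73% to 2.27% of fragments. The level of Polg was 9.48 ± 0.539 FPKM in wild type (SD, n = 3) and 10.2 ± 1.93 FPKM in mutator (SD, n = 4; limma adjusted p = 0.81), and a substitution need not alter this level. All 9 pluripotency markers were detected in every library, and their mean log2(FPKM + 1) ran from 5.48 to 5.91 in wild-type and from 5.08 to 5.59 in mutator samples. Among them Pou5f1 ran from 239 to 291 FPKM in wild type and from 103 to 188 FPKM in mutator libraries (limma adjusted p = 0.072), without overlap. Tdgf1 ran from 299 to 346 FPKM and from 65.4 to 225 FPKM (limma adjusted p = 0.051), also without overlap. Such a lack of overlap was found for 28.5% of all genes tested. The other pluripotency markers overlapped between groups. Log2 changes were above 0 for Esrrb (0.28), Utf1 (0.21), Klf4 (0.11) and Sox2 (0.02), and below 0 for Zfp42 (-0.43), Dppa5a (-0.19) and Nanog (-0.17). The mean log2(FPKM + 1) of 10 fibroblast markers ran from 1.99 to 2.39 in wild-type samples and from 2.33 to 3.89 in mutator samples. That of 8 primitive endoderm markers ran from 0.594 to 0.647 in wild-type and from 0.814 to 2.42 in mutator samples, with 2 of the 8, Sox17 and Foxa2, at 0 in a wild-type library. Of the tested fibroblast and endoderm markers, Thy1, Gata4, Pdgfra and Lama1 were higher in mutator samples without overlap. The others tested from these lists overlapped. No tested marker passed the test, and the part of other cells in the results below was not tested. In bulk RNA, fewer mitochondria per cell and less RNA per mitochondrion cannot be told apart.

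Most of the mtDNA transcripts that were tested did not differ detectably between mutator and wild-type cells. Of the 13 protein genes, all of which passed the filter of a mean of at least 1 FPKM, 1 was higher and 0 were lower in mutator samples (limma on log2(FPKM + 1), Benjamini-Hochberg adjusted p below 0.05), a share to be read against 7.49% of all 11949 genes tested. At an unadjusted p below 0.05 the count was also 1. Estimated changes were above 0 for 8 and below 0 for 5 of the 13, with a median log2 change of 0.08, beside -0.03 over all genes tested. Of the 2 rRNA genes and the 2 tRNA genes that passed the filter, 0 were called, and 0 had an unadjusted p below 0.05. Standard errors of 0.23 to 0.34 log2 units accompany the changes of the 7 protein genes above 100 FPKM. The limma fit draws the variance of a gene toward that of genes of similar level, so these errors are not its own spread alone. For mt-Nd4 the SD was 72.1 FPKM around a mean of 561.4 in wild type and 60 FPKM around 656.6 in mutator samples, with a standard error of 0.23.

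**Figure D1:**
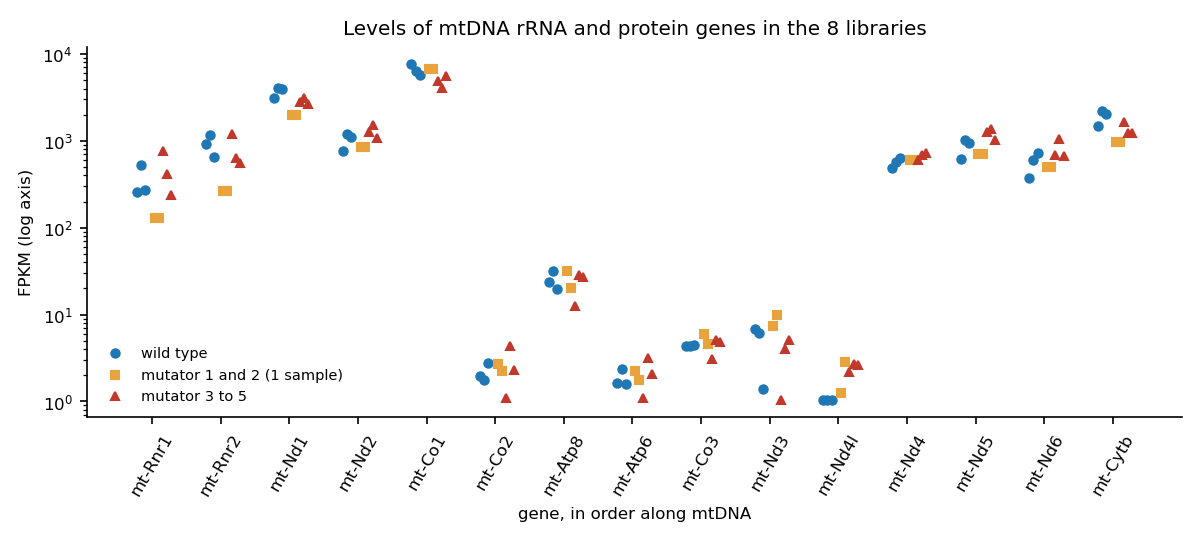
FPKM on a log axis of the 2 rRNA and 13 protein genes of mtDNA, in their order along the molecule, with 1 point per library (circles, wild type; squares, mutator replicates 1 and 2, counted as 1 sample; triangles, mutator replicates 3 to 5). The 6 genes from mt-Co2 to mt-Nd4l lie between 1.03 and 32 FPKM in every library, while the other 7 protein genes lie between 379 and 7714 FPKM.

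The tRNA genes were nearly all without signal. Of the 22, 20 were listed at 0 in every library, and no fold or test was computed for them. They were mt-Tf, mt-Tv, mt-Tl1, mt-Ti, mt-Tq, mt-Ta, mt-Tn, mt-Tc, mt-Ty, mt-Ts1, mt-Td, mt-Tk, mt-Tg, mt-Tr, mt-Th, mt-Ts2, mt-Tl2, mt-Te, mt-Tt and mt-Tp. The length of the fragments is not given, and for genes as short as these a 0 can be a failed estimate, so the zeros do not show that the tRNAs were absent. The exceptions were mt-Tm, the methionine tRNA gene just before mt-Nd2 (chrM:3845-3913, plus strand), and mt-Tw, the tryptophan tRNA gene just after it (chrM:4950-5016, plus strand), whose first 2 bases, in capitals, also belong to mt-Nd2. Their DNA sequences, from the GENCODE M21 transcripts, are shown because these were the only tRNA rows with a value, and they flank the same mRNA.
mt-Tm: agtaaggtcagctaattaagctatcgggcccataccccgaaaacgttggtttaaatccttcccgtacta
mt-Tw: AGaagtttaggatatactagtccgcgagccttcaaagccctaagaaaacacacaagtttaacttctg
The mt-Tm row was 2496 FPKM in wild-type replicate 2 and listed at 0 in the other 7 libraries, so no fold is given (limma adjusted p = 0.32). The mt-Tw row measured 32554, 60213 and 95504 FPKM in wild-type replicates 1 to 3. It measured 61791, 69597, 17975, 49812 and 81755 FPKM in mutator replicates 1 to 5. The groups overlapped throughout, and mutator replicate 3 was the lowest library (log2 change -0.29, SE 0.67, limma adjusted p = 0.79). This 67-base row alone made up 2.38% to 8.01% of a library's FPKM sum, whereas its neighbour mt-Nd2 stayed at or below 1523 FPKM in all libraries. With the fragment length not given, the FPKM of so short a gene is uncertain too. The values therefore do not show that mt-Tw RNA was more abundant than mt-Nd2 RNA.

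Both rRNA genes varied more among mutator samples than between groups. The mt-Rnr1 row, for the rRNA of the small mitochondrial ribosomal subunit (chrM:70-1024, plus strand), measured 259.9, 522.1 and 274.2 FPKM in the wild-type libraries. In mutator replicates 1 to 5 it measured 128.3, 128.2, 771.8, 415 and 240.4 FPKM. The lowest and the highest values were thus both mutator (log2 change -0.08, SE 0.58, limma adjusted p = 0.94). The mt-Rnr2 row, for the rRNA of the large subunit (chrM:1094-2675, plus strand), measured 932.1, 1178 and 647.7 FPKM in wild type. In mutator replicates 1 to 5 it measured 263.2, 265, 1216, 634.1 and 550.9 FPKM. The order of the libraries was similar for both rRNAs, with mutator replicate 3 highest and the replicate 1 and 2 pair lowest (log2 change of mt-Rnr2 -0.62, SE 0.49, limma adjusted p = 0.41). The ratio of mt-Rnr2 to mt-Rnr1 was 3.59, 2.26 and 2.36 in wild type and ran from 1.53 to 2.29 in mutator samples, so these ranges overlapped. Whether rRNA had been removed or polyadenylated RNA selected is not given in the labels, so these levels need not follow those in the cell.

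There were 7 abundant protein genes, and by group mean mt-Co1, mt-Nd1 and mt-Cytb were the first 3 in both groups. The mt-Co1 row, for the catalytic subunit of cytochrome c oxidase (chrM:5328-6872, plus strand), was the highest of the 13 in every library. It measured 7714, 6299 and 5722 FPKM in wild type and 6788, 6780, 4955, 4047 and 5543 FPKM in mutator replicates 1 to 5. The 2 groups overlapped, with mutator replicate 4 lowest (log2 change -0.32, SE 0.34, limma adjusted p = 0.55). Of the summed FPKM of the 13 genes, mt-Co1 took 43.2% ± 8.24 (SD, n = 3) in wild type and 41.4% ± 10 (SD, n = 4) in mutator samples.

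Among the abundant genes for complex I, the NADH dehydrogenase, only mt-Nd1 had an estimate below 0, and it did not pass the test. Its row (chrM:2751-3707, plus strand) measured 3122, 4072 and 3981 FPKM in wild type and 1993, 1982, 2837, 3149 and 2627 FPKM in mutator replicates 1 to 5. Only mutator replicate 4 reached the range of the wild type (log2 change -0.50, SE 0.31, limma adjusted p = 0.30). The mt-Nd2 row (chrM:3914-4951, plus strand) measured 767.8, 1190 and 1119 FPKM in wild type and 848, 846.8, 1273, 1523 and 1077 FPKM in mutator replicates 1 to 5. Here 2 mutator libraries lay above all wild-type libraries and none lay below them (log2 change 0.20, SE 0.31, limma adjusted p = 0.70).

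The abundant complex I genes further along, mt-Nd4, mt-Nd5 and mt-Nd6, had estimates above 0 like mt-Nd2, and none passed the test. The mt-Nd4 row (chrM:10167-11544, plus strand) measured 487.7, 564.6 and 631.8 FPKM in wild type and 607.1, 605.5, 606.2, 688.9 and 725.1 FPKM in mutator replicates 1 to 5. Wild-type replicate 3 alone reached into the mutator range (log2 change 0.23, SE 0.23, limma adjusted p = 0.53). The mt-Nd5 row (chrM:11742-13565, plus strand) measured 626.8, 1021 and 948.3 FPKM in wild type and 714, 711.2, 1276, 1369 and 1012 FPKM in mutator replicates 1 to 5, with overlap (log2 change 0.32, SE 0.33, limma adjusted p = 0.53). The mt-Nd6 gene, the only one of the 13 on the minus strand (chrM:13552-14070), overlaps the end of mt-Nd5 by 14 bases. Its row measured 378.9, 597.6 and 725.1 FPKM in wild type and 499.2, 503.3, 687.2, 1042 and 665 FPKM in mutator replicates 1 to 5 (log2 change 0.35, SE 0.34, limma adjusted p = 0.51). The strand setting of the counting is not given, so reads from mt-Nd6 and from the opposite strand cannot be told apart.

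The mt-Cytb gene, for cytochrome b of complex III (chrM:14145-15288, plus strand), is the last protein gene in the plus-strand order. Its row measured 1501, 2226 and 2027 FPKM in wild type and 973, 970.9, 1631, 1232 and 1248 FPKM in mutator replicates 1 to 5. All mutator samples but replicate 3 lay below the wild type (log2 change -0.60, SE 0.30, limma adjusted p = 0.22). This was the largest estimated decrease among the 13 genes and did not pass the test.

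**Figure D2:**
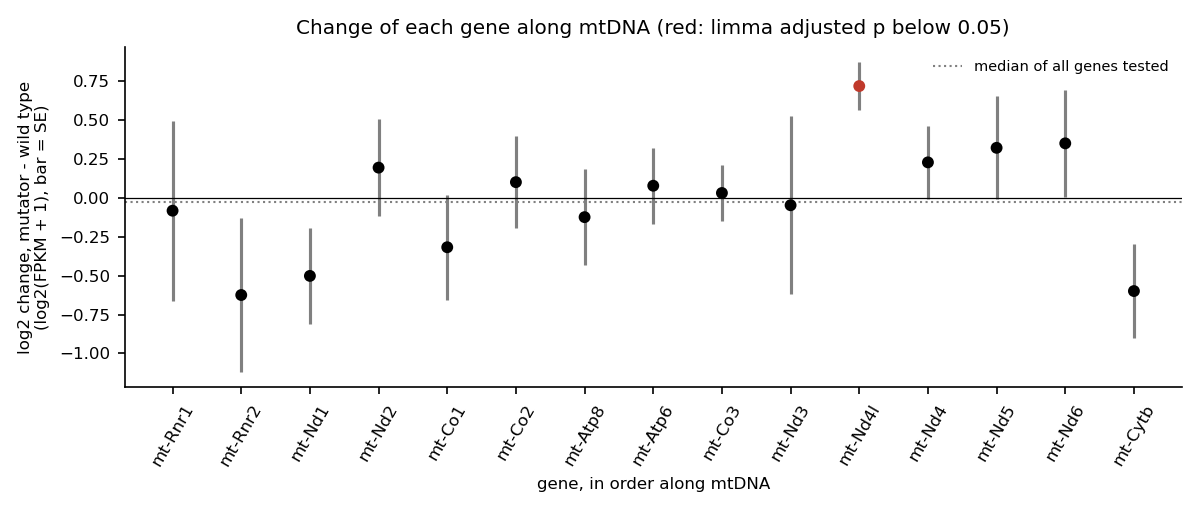
Log2 change between mutator (n = 4) and wild-type (n = 3) samples for each rRNA and protein gene in order along mtDNA, with bars of 1 standard error, on the log2(FPKM + 1) scale. Only mt-Nd4l (0.72) passed the test, and the dotted line marks the median of all genes tested (-0.03).

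Ratios between mtDNA genes of one library do not depend on how that library was scaled, and they were compared next. Of 8 ratios between neighbours among the 9 genes above 100 FPKM, 2 (25%) had no overlap between groups, close to the 22.3% of 20301 ratios between pairs of the 202 nuclear genes of at least 500 bases and 100 FPKM. The ratio of mt-Nd2 to mt-Nd1 was 0.246, 0.292 and 0.281 in wild-type libraries and 0.425, 0.427, 0.449, 0.484 and 0.41 in mutator replicates 1 to 5. All mutator values were higher, and the mean was 1.62 times that of the wild type. The ratio of mt-Cytb to mt-Nd6 was 3.96, 3.73 and 2.8 in wild type and 1.95, 1.93, 2.37, 1.18 and 1.88 in mutator replicates 1 to 5. All mutator values were lower, and the mean was 0.527 times that of the wild type.

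All 21 ratios between the 7 abundant protein genes were then compared, and 8 of them (38.1%) did not overlap between groups. Separation of a ratio was common in these libraries, at 22.3% of the nuclear ratios. The 21 ratios share genes and are not independent, and no test was made. In these 8, the numerator was one of the other complex I genes, mt-Nd2, mt-Nd4 and mt-Nd5 on the plus strand or mt-Nd6, the denominator was mt-Nd1 or mt-Cytb, and all were higher in mutator samples. Relative to mt-Nd1, the mutator mean was 1.62 times the wild-type mean for mt-Nd2, 1.68 times for mt-Nd4, 1.77 times for mt-Nd5 and 1.8 times for mt-Nd6. Relative to mt-Cytb, it was 1.76 times for mt-Nd2, 1.8 times for mt-Nd4, 1.92 times for mt-Nd5 and 1.98 times for mt-Nd6. The first 876 bases of mt-Nd4 have an identical nuclear copy, described below, so the ratios with mt-Nd4 are uncertain. Ratios among the 4 numerator genes overlapped, with mean log2 differences of 0.03 to 0.16, as did the ratio of mt-Cytb to mt-Nd1 (-0.10). The ratios of mt-Co1 to the other genes overlapped too. By position, mt-Nd1 and mt-Cytb are the first and last of the 13 genes, mt-Nd4, mt-Nd5 and mt-Nd6 follow each other, mt-Nd2 lies apart from them, and mt-Nd6 is read from the other strand.

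**Figure D3:**
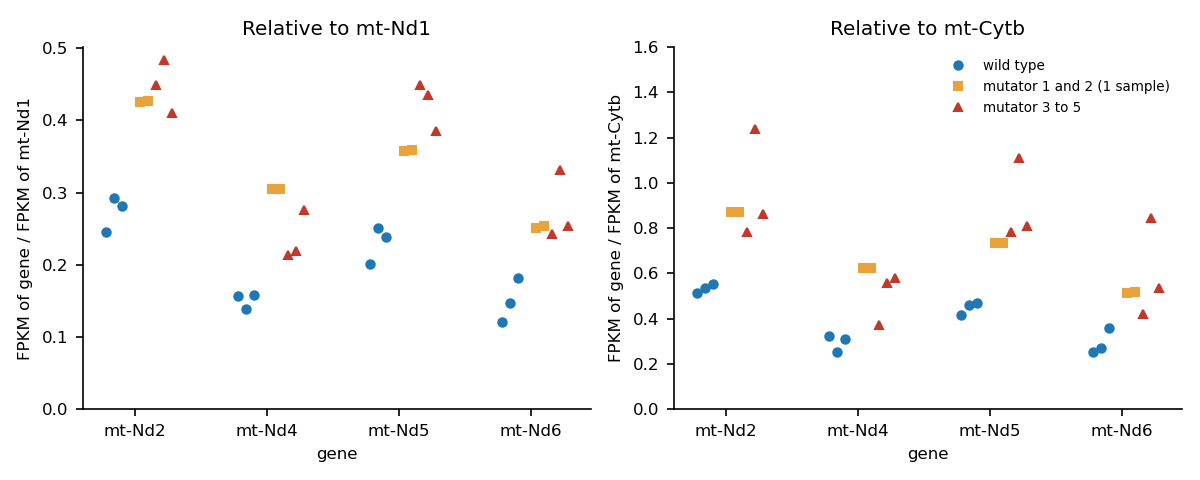
FPKM of 4 complex I genes divided by the FPKM of mt-Nd1 (left) or mt-Cytb (right) in each library, with symbols as in the plot of levels. In all 8 ratios every mutator library lies above the 3 wild-type libraries.

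A contiguous run of 6 protein genes was far below the other mtDNA protein genes in both groups. From mt-Co2 to mt-Nd4l (chrM:7013-10173, plus strand), wild-type means ran from 1.04 to 25.1 FPKM, against 561.4 to 6579 FPKM for the 7 other protein genes. Together the 6 genes made up 0.258% of the summed FPKM of the 13 genes in wild type and 0.308% in mutator samples. The step was abrupt at both ends. In wild-type samples the mean of mt-Co1 was 3030 times that of mt-Co2, and the mean of mt-Nd4 was 539 times that of mt-Nd4l, although mt-Nd4l and mt-Nd4 overlap by 7 bases.

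Within the run, only mt-Nd4l separated the groups. The mt-Co2 and mt-Co3 genes encode further core subunits of cytochrome c oxidase, and mt-Atp8 and mt-Atp6, which overlap by 43 bases, encode subunits of the ATP synthase. The mt-Co2 row lay between 1.11 and 4.34 FPKM in the 8 libraries, mt-Atp6 between 1.09 and 3.15, mt-Co3 between 3.09 and 6.04, and mt-Atp8, the shortest gene at 204 bases, between 12.7 and 32. The mt-Nd3 row measured 6.8, 6.19 and 1.38 FPKM in wild type and 7.37, 9.78, 1.04, 4.01 and 5.13 FPKM in mutator replicates 1 to 5. For these 5 genes the groups overlapped, and log2 changes lay between -0.12 and 0.10 with limma adjusted p of 0.81 to 0.97. Mutator replicate 3 was the lowest of the 8 libraries for all 5.

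The same segment has a near-identical annotated copy in the nuclear genome. Transcripts of mtDNA genes were aligned to all nuclear transcripts of GENCODE M21, and copies of at least 90% identity over at least 100 bases were listed. On chromosome 1, minus strand (chr1:24611535-24616197), 7 unprocessed pseudogenes follow each other in the order of mtDNA. They are Gm29216 (the last 483 bases of mt-Co1, 99.8% identical), Gm28661 (mt-Co2, 100%), Gm10925 (mt-Atp6, 100%), Gm28437 (mt-Co3, 100%), Gm28438 (mt-Nd3, 99.7%), Gm10222 (mt-Nd4l, 100%) and Gm28439 (the first 876 bases of mt-Nd4, 100%). The run of low mtDNA rows thus lies inside the copied segment. No copy of mt-Atp8 met the limits, although it lies within the segment by position. The copy of mt-Nd3 differs from mt-Nd3 within the first 60 bases by 1 substitution, T3C, counted from the first base of the gene (mtDNA base first). Both stretches are given 5′ to 3′ with that base in capitals, to show how little sequence tells the loci apart (chrM:9459-9518, plus strand, and chr1:24613060-24613119, minus strand).
mt-Nd3: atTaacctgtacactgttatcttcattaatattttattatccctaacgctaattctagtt
Gm28438: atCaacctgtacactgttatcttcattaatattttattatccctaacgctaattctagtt
How reads that fit both loci were assigned is not given in the sources used here, so levels of mtDNA genes in this segment and of their copies are uncertain. Of the 7 copies, only Gm10222 was a row analysed here.

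The one gene called, mt-Nd4l, encodes a small hydrophobic subunit of complex I (chrM:9877-10173, plus strand). Its row measured 1.05, 1.03 and 1.05 FPKM in wild type and 1.25, 2.86, 2.16, 2.68 and 2.61 FPKM in mutator replicates 1 to 5. All mutator libraries were above the wild type. Groups without overlap were found for 28.5% of all genes tested. The level rose by 0.72 on the log2 scale (SE 0.15, limma adjusted p = 0.037). Counting higher calls alone, 2.95% of all genes passed. The wild-type SD was 0.00928 FPKM, while the limma error also draws on the spread of the mutator samples and of other genes. Mutator replicates 1 and 2, counted as 1 sample, differed by more (1.25 against 2.86 FPKM) than the 2 group means (1.04 and 2.37 FPKM). At the 26500000 fragments implied for mutator replicate 1, these 2 values correspond to at most about 9.79 and 22.5 fragments. Of 18 alternative analyses, 9 gave no call, among them leaving out any 1 of the wild-type libraries (limma adjusted p over all 18 from 0.013 to 0.98).

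The first 294 of the 297 bases of mt-Nd4l, shown in full because the result rests on it, are identical to Gm10222 (chr1:24612407-24612700, minus strand); the last 3, in capitals, lie outside the aligned copy.
mt-Nd4l: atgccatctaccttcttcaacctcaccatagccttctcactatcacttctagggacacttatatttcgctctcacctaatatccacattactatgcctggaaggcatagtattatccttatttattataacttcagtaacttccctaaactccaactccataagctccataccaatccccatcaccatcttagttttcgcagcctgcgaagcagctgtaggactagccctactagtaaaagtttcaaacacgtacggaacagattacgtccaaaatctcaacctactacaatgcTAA
The Gm10222 row measured 33.1, 55.2 and 84 FPKM in wild type and 22.8, 24.5, 64, 97.6 and 46 FPKM in mutator replicates 1 to 5, from 8.57 to 80.3 times the level of mt-Nd4l in the same library. Its groups overlapped fully (log2 change -0.07, SE 0.48, limma adjusted p = 0.94). When the rows of mtDNA genes were summed with those of their copies, an alternative chosen after seeing the data, the log2 change of mt-Nd4l was -0.02 (limma adjusted p = 0.98) and no protein gene was called.

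Other nuclear copies were less similar to mtDNA. Of these and Gm10222, 9 copies had a row and were tested, and 1 was higher and 0 were lower in mutator samples, where 2.95% of all genes tested were higher and 4.54% lower. On chromosome 2, Gm13339 (96.7% identical to mt-Nd2), Gm13340 (97.6%, mt-Co1) and Gm13341 (95.9%, mt-Co2) had wild-type means of 23.3, 97.6 and 70.4 FPKM, and the mean of Gm13341 thus exceeded that of mt-Co2 itself (2.17 FPKM). The remaining 2 were Gm11512 on chromosome 11 (90.7%, mt-Co1) and Gm4076 on chromosome 13 (95.2%, mt-Nd5), with wild-type means of 5.25 and 17.2 FPKM. None of these 5 passed the test (limma adjusted p of 0.23 to 0.95). On a separate list of 10 pseudogene symbols, made without the alignment, 4 were tested and 0 called. These 4, Gm10222, Gm13339, Gm13340 and Gm13341, are among the 9 copies above and add no further result.

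A run of 3 copies on chromosome 4, plus-strand order mt-Nd5, mt-Nd6 and mt-Cytb, had higher means in mutator samples. Gm11407, a copy of part of mt-Nd5 (92.4% identical over 1055 bases, chr4:80002331-80003388, plus strand), measured 1.57, 3.37 and 3.19 FPKM in wild type. In mutator replicates 1 to 5 it measured 6.04, 5.79, 10.9, 23.4 and 8.32 FPKM. All mutator libraries were higher, and the gene rose by 1.70 on the log2 scale (SE 0.41, limma adjusted p = 0.045). The call was lost in 10 of 19 alternatives, including each in which 1 sample was left out (limma adjusted p over all 19 from 0.025 to 0.18). Gm11410, a copy of mt-Cytb (92.9% identical, chr4:80003989-80005131, plus strand), measured 2.43, 7.9 and 6.41 FPKM in wild type and 1.68, 1.88, 23, 37.2 and 17.4 FPKM in mutator replicates 1 to 5. Replicates 3 to 5 were the highest and the replicate 1 and 2 pair the lowest, so the groups overlapped (log2 change 1.27, SE 0.82, limma adjusted p = 0.32). Gm11408, a copy of mt-Nd6 (93.6% identical, minus strand), had group means of 2.49 and 9.18 FPKM and also overlapped (log2 change 1.32, SE 0.55, limma adjusted p = 0.15).

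The levels of the 3 copies on chromosome 4 were 0.291% to 0.438% of those of their mtDNA genes in wild-type and 1.11% to 1.56% in mutator samples. The first 120 bases of the alignments of Gm11407 and Gm11410 to mtDNA are given with differing bases in capitals, because reads can be told apart only where such bases fall. There were 12 differences to mt-Nd5 (chrM:12489-12608 and chr4:80002331-80002450, plus strands) and 7 to mt-Cytb (chrM:14146-14265 and chr4:80003990-80004109, plus strands).
mt-Nd5: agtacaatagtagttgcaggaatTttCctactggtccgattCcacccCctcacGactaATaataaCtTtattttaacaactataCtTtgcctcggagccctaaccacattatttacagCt
Gm11407: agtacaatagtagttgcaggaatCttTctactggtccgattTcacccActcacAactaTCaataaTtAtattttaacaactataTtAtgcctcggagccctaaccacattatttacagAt
mt-Cytb: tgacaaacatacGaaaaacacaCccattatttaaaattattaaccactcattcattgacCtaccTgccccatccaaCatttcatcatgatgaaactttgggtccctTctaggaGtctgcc
Gm11410: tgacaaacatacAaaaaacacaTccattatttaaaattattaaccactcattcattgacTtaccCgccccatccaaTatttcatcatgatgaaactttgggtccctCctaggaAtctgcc
The table holds no reads, so how many in these rows came from mtDNA was not tested.

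**Figure D4:**
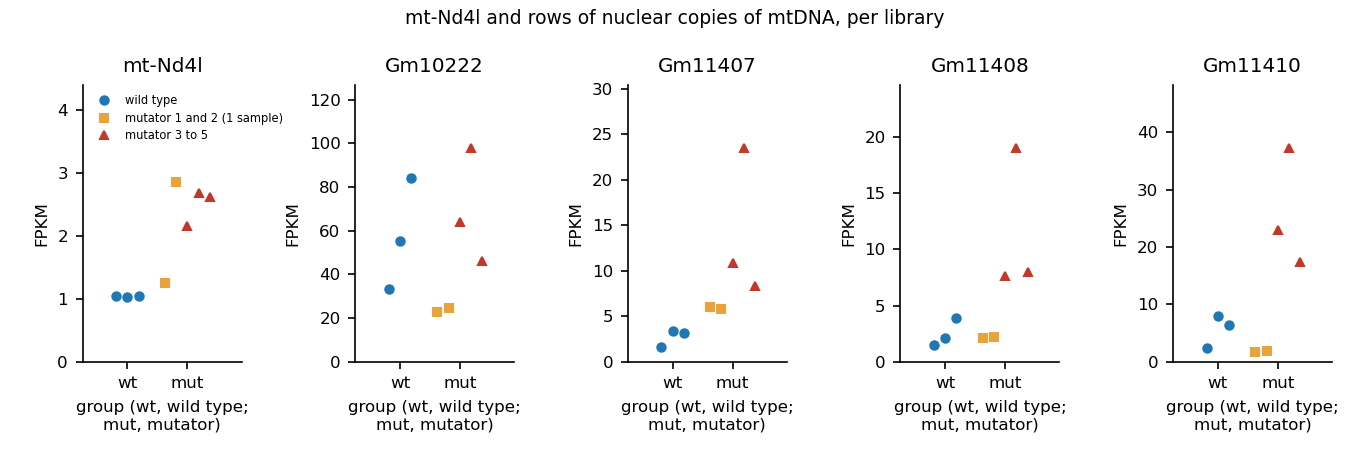
FPKM per library of mt-Nd4l, of its copy Gm10222 and of the 3 copies on chromosome 4, on linear axes from 0 that differ between panels, with symbols as in the plot of levels. The mt-Nd4l and Gm11407 values are higher in all mutator libraries, while Gm10222, Gm11408 and Gm11410 overlap.

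The summed level of the 13 protein genes depended on the scaling of the libraries. As deposited, it was 14638, 16019 and 15184 FPKM in wild type and 12474, 12441, 13286, 13099 and 12941 FPKM in mutator replicates 1 to 5. All mutator sums were lower, and the mutator mean was 0.847 times that of the wild type. After rescaling to TPM the groups overlapped and the ratio was 1.22. It was 0.831 with median-of-ratios size factors and 0.958 when libraries were scaled to nuclear genes of at least 500 bases, again with overlap. The all-gene median of the log2 change was 0.37 with TPM and 0.11 with scaling to long nuclear genes, beside -0.03 as deposited, so a direction for the total is not given. Relative to these medians, the change of mt-Nd1 was -0.36 to -0.48 and that of mt-Cytb -0.45 to -0.58, a difference that scaling hardly moves by its construction. Of the 13 shares of the total, 2 did not overlap, those of mt-Nd4 and mt-Nd4l, beside 28.5% of the levels of all genes tested. The share of mt-Nd4 was 3.67% ± 0.434 in wild type (SD, n = 3) and 5.07% ± 0.454 in mutator samples (SD, n = 4). Its first 876 bases are identical to the nuclear copy Gm28439, so the level and share of mt-Nd4 are uncertain.

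**Figure D5:**
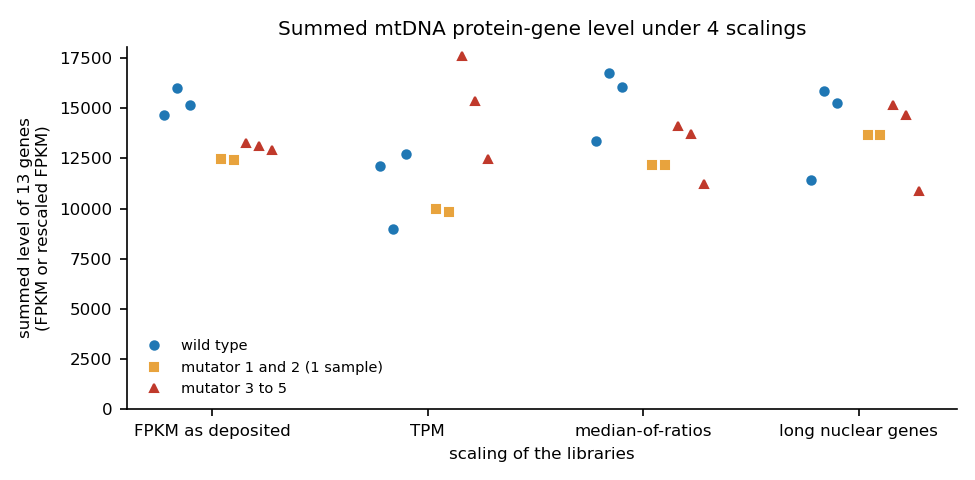
Summed level of the 13 protein genes in each library under 4 scalings, with symbols as in the plot of levels and the axis starting at 0. The groups are apart for FPKM as deposited and overlap under the 3 other scalings.

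Nuclear genes were tested in 5 lists: mtDNA transcription, RNA cleavage, RNA stability and decay, tRNA maturation and rRNA modification. Of these 56 genes, 8 fell, 0 rose and the others did not pass the test, while 4.54% of all genes tested were called lower. The lists were chosen with earlier results of these data known, so the comparison with all genes is a description only. Estimates were below 0 for 49 of the 56, with a median log2 change of -0.34, beside 6259 of all 11949 genes tested. After TPM rescaling 0 were called and 23 were below 0, with a median of 0.05 where that of all genes was 0.37. Leaving out 1 sample gave 0 to 7 lower genes, median-of-ratios size factors 19 and all 8 libraries as samples 13.

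Transcripts for enzymes that cut the precursor were among those that fell, and protein levels were not measured. Of 4 cleavage genes tested, Elac2, the nuclease that trims tRNA 3′ ends, fell by 0.91 on the log2 scale, from 13.2 ± 3.29 FPKM (SD, n = 3) to 6.52 ± 1.28 FPKM (SD, n = 4; SE 0.21, limma adjusted p = 0.042). The transcript for the protein subunit of mitochondrial RNase P that cuts tRNA 5′ ends, listed as 1110008L16Rik, fell by 0.70, from 6.34 to 3.53 FPKM (limma adjusted p = 0.04). The other cleavage genes tested, Ptcd1 and Hsd17b10, did not pass the test (limma adjusted p = 0.43 and 0.47). Of 16 genes for RNA stability and decay, 4 fell. They were Rexo2, an exonuclease of short RNAs, by 0.94 (limma adjusted p = 0.037), and the FAST kinase domain proteins Fastkd3 by 0.73 (limma adjusted p = 0.041), Fastkd5 by 0.69 (limma adjusted p = 0.042) and Fastkd2 by 0.67 (limma adjusted p = 0.047).

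Of 18 genes for tRNA maturation, 2 fell. Trmt5, a tRNA methyltransferase, fell by 0.93 (limma adjusted p = 0.027), and Trnt1, which adds the CCA end, fell by 0.85 (limma adjusted p = 0.048). Neither the 7 transcription genes nor the 12 rRNA modification genes included a call. Under median-of-ratios scaling 4 and 3 of them fell, and with all 8 libraries as samples 2 and 3. Their smallest p belonged to Tfb2m (log2 change -0.53, limma adjusted p = 0.075) and Tfb1m (log2 change -0.56, limma adjusted p = 0.087), and to Ftsj2 (log2 change -0.61, limma adjusted p = 0.059) and Ddx28 (log2 change -0.55, limma adjusted p = 0.062). Each of the 8 calls was lost in 8 to 11 of its alternatives.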

How the data were processed

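RNA-seq of 3 wild-type and 5 mutator iPS cell libraries was used; groups follow the sample titles. The authors deposited FPKM per gene, and STAR and Cufflinks are named in the submitters' processing notes. Their versions, the genome build, annotation, strand setting, depth and RNA selection are not given in the sources used here. Rows of 265 repeated symbols were summed. The test was limma 3.58.1 (R 4.3.3), two-sided, on log2(FPKM + 1) for genes averaging at least 1 FPKM, with Benjamini-Hochberg adjustment over 11949 genes. Changes are mutator minus wild type and understate those of low genes.

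Mutator replicates 1 and 2 differed by 1.14 times sampling noise, against 4.05 to 17 times in 12 other pairs within groups. The replicate numbers did not pair samples across groups. Coordinates and sequences came from GENCODE M21 (GRCm38) by gene ID, which held 35447 of the IDs. Copies were found with BLAST 2.17.0. The fragments of mutator replicate 1 were implied from steps between mutator replicates 1 and 2 in 14 genes. This number was used for every library, so the noise measure is not independent of that pair. The median absolute log2 difference over more highly expressed genes does not use it. It was 0.055 for the pair, against 0.144 to 0.442 in the 12 other pairs. The limma fit was tested on simulated data with known changes. Python 3.11.15, pandas 2.3.3, numpy 2.4.6 and matplotlib 3.10.9 were used.

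Named were all protein and rRNA genes, the tRNA genes, copies by alignment, Polg, and of each list up to 6 called genes or 2 by smallest p. Members and lists were chosen with earlier results of these data known. Alternatives covered the pseudocount, filter, scaling, the replicate pair, a replicate block and each sample left out.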

Additional observations from a re-analysis of the deposited data

Results flagged for a closer look

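One value was flagged as standing apart from the others of its group. The single mt-Tm value above 0, in wild-type replicate 2, stood apart too and is described above. In the mutator samples the mt-Atp8 row was 12.7 FPKM in replicate 3, while the replicate 1 and 2 mean and replicates 4 and 5 were 26.1, 28.5 and 27.1 FPKM. The gap to the nearest sample, divided by the range of the group, exceeded the critical value of Dixon's test for 4 samples. Chance alone marks about 1 in 20 groups. The same library was also the lowest of the 8 for mt-Co2, mt-Atp6, mt-Co3 and mt-Nd3, and the highest for both rRNA genes. Its FPKM sum of 753985 was the smallest of the 8.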

How the results depend on the processing

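The rRNA and tRNA genes had 0 calls under every alternative run. The count of protein genes called, 1, was 0 with a filter of 5 FPKM (which leaves mt-Nd4l untested), with no filter, with mutator replicate 1 in place of the pair, with the replicate block and with copies summed in, and 0 to 1 without 1 sample. The count for all genes, 895, was 43 with no filter, 2102 with median-of-ratios factors, 2205 scaled to long nuclear genes and 2203 with 8 libraries as samples. Without 1 sample it was 2 to 1096, with 5 without wild-type replicate 1, 2 without replicates 2 or 3, 5 without the pair, and 241 and 581 without mutator replicates 4 and 5. TPM gave 1092 higher and 21 lower genes, against 353 and 542. The replicate block left 1 gene, but same-numbered samples did not deviate together (correlations 0.013, -0.012 and 0.051), so the number does not pair them. The causes were not tested.

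The median of the protein genes, 0.08, was 0.42 under TPM, beside 0.37 for all genes. The sum of the 13 genes, 0.847 of the wild type, became 1.22 under TPM and 0.958 with long nuclear genes. Of the genes whose sign turned, only mt-Nd4l had been called. Under TPM the log2 changes became 0.20 for mt-Co1, 0.01 for mt-Nd1, 0.37 for mt-Atp8, 0.32 for mt-Nd3, 0.43 for mt-Rnr1, 0.23 for mt-Tw and 0.44 for Gm10222. Scaled to long nuclear genes they became 0.048 for mt-Atp8, 0.094 for mt-Nd3, 0.10 for mt-Rnr1 and 0.11 for Gm10222. With the replicate block, where Gm11410 moved from 1.27, they became -0.10 for mt-Atp6, -0.094 for mt-Co2, -0.053 for mt-Nd2, 0.15 for mt-Nd3 and -0.10 for Gm11410. With 8 libraries mt-Nd3 became 0.14, with mutator replicate 2 in place of the pair mt-Co3 became -0.011, and with copies summed mt-Co2 became -0.34 and mt-Nd4l -0.025. Without 1 sample, changes of both signs were found for mt-Nd2 (-0.00012 to 0.34), mt-Nd3 (-0.60 to 0.38), mt-Rnr1 (-0.51 to 0.24, and 0.35 without the pair), mt-Tw (-0.70 to 0.17), mt-Atp8 (-0.28 to 0.14), mt-Atp6 (-0.078 to 0.25), mt-Co2 (-0.12 to 0.33), mt-Co3 (-0.015 to 0.18, and -0.033 without the pair) and Gm10222 (-0.40 to 0.30). The count of separate ratios was 8 to 11 without 1 sample. Alternatives for the ratios, the sum, the copies and the list genes, and the summing of copies, were chosen after seeing the data.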
